A study of Mus musculus with 8 samples.

Results

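The genes described here are 10 interferon-gamma-inducible GTPase genes of 2 families, the guanylate-binding proteins (Gbp2, Gbp3, Gbp5, Gbp6, Gbp7 and Gbp9) and the immunity-related GTPases (Irgm1, Irgm2, Igtp and Iigp1). They were taken by gene symbol, not by any measured value, from a table of 28295 genes, and all 10 were found. All 10 also had a mean of at least 0.5 FPKM (fragments per kilobase and per 1000000 mapped), as did 14400 genes in all, and were tested. Of the other family genes looked for by symbol, 17 were found and 11 were tested.

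The study compared epididymal white fat, by sequencing of poly(A) RNA, between 2 groups of male mice kept on a Western diet for 8 weeks and fasted for 6 h. The KO-labelled group (libraries KO1 to KO4) was AdipoQ-Cre;Cul3-flox/flox, so that Cre was expressed under the promoter of the adiponectin gene, which is active in adipocytes and not in the immune or vascular cells of the depot. The WT group (libraries WT1 to WT4) was Cul3-flox/flox, so both groups carried floxed alleles of Cul3, the scaffold gene of a family of ubiquitin ligases, and the groups differed by the Cre transgene as well as by the deletion it is meant to cause. The labels give the age of no animal and do not say that each library came from a separate mouse, so p-values measure the spread between these libraries.

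The libraries labelled KO did not have a lower level of Cul3, which had 10.65, 11.2, 13.2 and 12.99 FPKM in KO1 to KO4, against 11.4, 9.66, 12.4 and 11.5 FPKM in WT1 to WT4 (log2 fold change 0.09 ± 0.10, limma adjusted p = 0.520; exact two-sided permutation test, p = 0.429, where 0.0286 is the smallest p that 4 against 4 allows). Gene-level values cannot show a loss of the floxed exons alone. The groups are therefore called KO-labelled and WT, and every direction below rests on those labels. Reads in listed genes, recovered from the FPKM values, numbered 15168506 to 18734574 in KO-labelled libraries and 17665436 to 19683715 in WT libraries. They made up 62.6% to 66.1% of the FPKM denominator in KO-labelled libraries and 74.1% to 78.7% in WT libraries. Liver markers summed to 472.5 FPKM in WT2 and 127.2 FPKM in WT1 but to at most 35.11 FPKM in the other libraries, and epididymis markers summed to 282.8 FPKM in KO1 and 72.3 FPKM in WT2 but to at most 11.2 FPKM elsewhere.

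Interferon-gamma, made mainly by T cells, natural killer cells and related innate lymphocytes, binds a receptor of 2 chains that works through the kinases JAK1 and JAK2. The signal reaches promoters at GAS elements, while IRF1, and the complex with STAT2 and IRF9 that type I interferon activates, bind ISRE elements. The GTPases made in response act inside the cell. Guanylate-binding proteins (GBPs) coat intracellular bacteria and the vacuoles of parasites and promote inflammasome activation. Immunity-related GTPases (IRGs) include effectors that disrupt such vacuoles, among them Iigp1, and regulators that sit on the cell's own membranes and hold the effectors inactive there, namely Irgm1, Irgm2 and Igtp (also called Irgm3). In obese fat, macrophages, endothelial cells and adipocytes themselves can all respond to interferon-gamma, so a level in whole tissue is a sum over cell types.

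In build mm10 (GRCm38, GENCODE M21 gene bounds), 4 of the GBP genes lie in 1 cluster on the plus strand of chromosome 3. They are Gbp5 (ENSMUSG00000105504, 142493978 to 142522344), Gbp7 (ENSMUSG00000040253, 142530342 to 142550149), Gbp3 (ENSMUSG00000028268, 142560026 to 142573209) and Gbp2 (ENSMUSG00000028270, 142620602 to 142638008). Gbp9 (ENSMUSG00000029298, 105077630 to 105139539) and Gbp6 (ENSMUSG00000104713, 105270702 to 105293698) belong to a second cluster, on the minus strand of chromosome 5. Igtp (ENSMUSG00000078853, 58199556 to 58207591) and Irgm2 (ENSMUSG00000069874, 58199618 to 58222782) overlap each other on the plus strand of chromosome 11, and Irgm1 (ENSMUSG00000046879, 48861968 to 48871683) lies on the minus strand of the same chromosome.

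RefSeq promoter windows (GRCm38.p6, 250 bases before to 50 bases after the annotated start) were used for 7 of the 10 genes, namely Gbp2, Gbp3, Gbp5, Gbp7, Irgm1, Igtp and Irgm2. They were searched on both strands for the core of an ISRE (interferon-stimulated response element), read as GAAA, any 2 bases and GAAA again, and for the core of a GAS (gamma-activated site), TTCNNNGAA. All 7 genes had at least 1 window with an ISRE match, which 3.44% of the 32851 promoters in the same table had. A GAS match was found for 4 of the 7 (Gbp5, Gbp7, Igtp and Irgm2), and 8.3% of all promoters had one. The stretch around the ISRE match is given 5′ to 3′ on the gene's strand, with ISRE and GAS matches in capitals, first for Gbp2 and Gbp5, which differed least among the 7, and then for the 4 with the clearest differences.
Gbp2, chr3:142620564-142620653, plus strand: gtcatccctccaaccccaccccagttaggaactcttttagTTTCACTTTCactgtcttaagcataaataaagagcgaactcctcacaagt
Gbp5, chr3:142496729-142496818, plus strand: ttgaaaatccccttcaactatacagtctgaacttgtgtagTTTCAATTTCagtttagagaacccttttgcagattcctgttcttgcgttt
Gbp3, chr3:142559959-142560054, plus strand: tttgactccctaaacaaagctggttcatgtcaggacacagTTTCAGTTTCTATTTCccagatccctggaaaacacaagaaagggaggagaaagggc
Irgm1, chr11:48871395-48871490, minus strand: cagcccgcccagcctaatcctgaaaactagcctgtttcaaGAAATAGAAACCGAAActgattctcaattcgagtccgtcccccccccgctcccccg
Igtp, chr11:58199482-58199571, plus strand: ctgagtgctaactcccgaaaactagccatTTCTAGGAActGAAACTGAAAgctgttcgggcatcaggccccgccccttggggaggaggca
Irgm2, chr11:58214873-58214962, plus strand: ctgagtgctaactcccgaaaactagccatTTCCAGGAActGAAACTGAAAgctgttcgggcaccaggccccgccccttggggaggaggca

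In Gbp2, Gbp5 and Gbp3 the ISRE match is read on the opposite strand, the 2 GAS matches of Gbp5 lie outside the stretch shown, and in Gbp3 and Irgm1 a pair of matches overlap in 1 run of capitals. The Igtp and Irgm2 stretches are identical at 88 of 90 bases, with a GAS match just before the ISRE match in both; the RefSeq start used for Irgm2 lies inside its GENCODE bounds. An ISRE match stands in the windows of Gbp2 and Gbp5, which did not pass the test below, and in those of genes that did, and GAS matches too stand in windows of both kinds.

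In the KO-labelled fat, 5 of the 10 GTPase genes were higher than in WT and none was lower. The 3 regulators of the IRG family moved together, with Irgm1, Irgm2 and Igtp at close to 2 times their WT level, and Gbp3 was higher by a similar factor. Gbp7 was higher by less. Gbp2, the most abundant of the 10, Gbp5 and Gbp9 differed by no more than their spread between libraries, and Gbp6 and the effector gene Iigp1 did not pass the test. Calls were made below an adjusted p of 0.05 (limma on log2(FPKM + 0.5), Benjamini-Hochberg over 14400 genes), and of all genes tested 11.7% were called higher and 18.6% lower, 30.4% in either direction. At an unadjusted p under 0.05, 7 of the 10 were higher and 0 lower, and voom on the recovered reads called 5 higher and 0 lower. The median log2 fold change of the 10 was 0.57, beside -0.02 over all genes tested. In whole tissue, fewer cells of a type and less RNA per cell cannot be told apart.

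**Figure D1:**
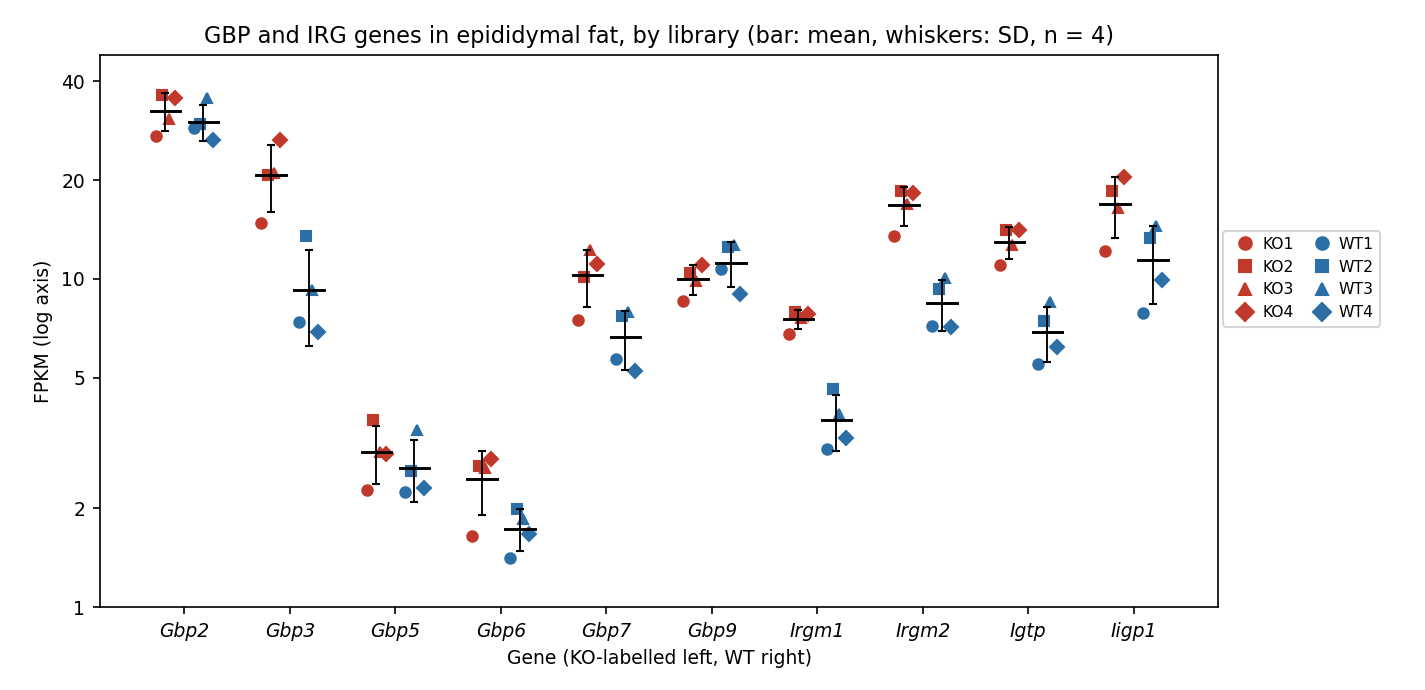
FPKM of the 10 GTPase genes on a log axis, with KO-labelled libraries (red) left of WT libraries (blue) for each gene. Points are libraries, and bars and whiskers are the mean and SD of 4. For Gbp3, Irgm1, Irgm2 and Igtp all red points stand above all blue ones, while those of Gbp2, Gbp5 and Gbp9 intermingle.

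Irgm1, whose product keeps IRG effectors off the cell's own membranes and takes part in autophagy and mitochondrial turnover, had 6.79, 7.95, 7.60 and 7.81 FPKM in KO1 to KO4, against 3.04, 4.63, 3.89 and 3.28 FPKM in WT1 to WT4. The lowest KO-labelled library lay above the highest WT library. The means were 7.54 ± 0.518 FPKM in the KO-labelled group and 3.71 ± 0.713 FPKM in WT (SD, n = 4 each), a log2 fold change of 0.95 ± 0.12 (SE; limma adjusted p = 0.000797). It was the smallest adjusted p of the 10 genes.

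Irgm2, a regulator found at the Golgi apparatus, had 13.5, 18.5, 16.9 and 18.3 FPKM in KO1 to KO4, against 7.19, 9.33, 10.04 and 7.14 FPKM in WT1 to WT4. Again the groups did not overlap, with KO1 the lowest of its group and WT3 the highest of its own. Irgm2 was higher by 0.96 ± 0.14 on the log2 scale (limma adjusted p = 0.00165). Igtp, the regulator of the endoplasmic reticulum and of lipid droplets, had 11.05, 14.04, 12.7 and 14.1 FPKM in KO1 to KO4, against 5.51, 7.45, 8.48 and 6.195 FPKM in WT1 to WT4. It too was higher in every KO-labelled library than in any WT library, by 0.87 ± 0.14 on the log2 scale (limma adjusted p = 0.00217).

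Igtp and Irgm2 share 162 exonic bases in the annotation, 8.0% of the Igtp exons and 4.4% of those of Irgm2, so a small share of their reads may have been left out or assigned to either. Their ratio was close in the groups. Igtp stood at 0.775 ± 0.0299 of Irgm2 in KO-labelled libraries and at 0.819 ± 0.0453 in WT libraries (SD, n = 4 each), with overlap. Irgm1 stood at 0.453 ± 0.0350 and 0.441 ± 0.0469 of Irgm2 in the same groups, also with overlap, although Irgm1 lies apart from the other two on the chromosome.

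Gbp3, one of the GBPs that in mice are recruited to the vacuoles of Toxoplasma, had 14.8, 20.7, 21.1 and 26.4 FPKM in KO1 to KO4, against 7.39, 13.5, 9.23 and 6.89 FPKM in WT1 to WT4. The groups did not overlap, but KO1 and WT2 came close to each other. With means of 20.7 ± 4.77 FPKM in the KO-labelled group and 9.26 ± 3.02 FPKM in WT, Gbp3 had the largest log2 fold change of the 10 genes, 1.14 ± 0.23 (limma adjusted p = 0.00742). Irgm1, Irgm2, Igtp and Gbp3 were the 4 genes of the 10 whose groups did not overlap, all with the KO-labelled group higher, as for 12.1% of all genes tested (31.2% did not overlap in either direction). Each of the 4 kept its call under all 22 alternatives tried, among them leaving out each library in turn and leaving out WT1 and WT2 together.

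Gbp7, which in mice helps to restrict intracellular bacteria, had 7.52, 10.1, 12.25 and 11.1 FPKM in KO1 to KO4, against 5.70, 7.69, 7.93 and 5.22 FPKM in WT1 to WT4. KO1 lay within the WT range and the other 3 KO-labelled libraries above it. Its difference of 0.59 ± 0.18 on the log2 scale was called (limma adjusted p = 0.0348), but 7 of the 22 alternatives lost the call, with adjusted p from 0.00696 to 0.133 over all 22. They were the fit with no filter on low values, those without KO2, KO3, KO4, WT1 or WT4, and that without both WT1 and WT2. In the annotation 11.3% of the Gbp7 exon bases are shared with the predicted gene Gm43802.

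Iigp1 (ENSMUSG00000054072, on chromosome 18), the effector also known as Irga6, had 12.1, 18.5, 16.4 and 20.4 FPKM in KO1 to KO4, against 7.88, 13.3, 14.5 and 9.94 FPKM in WT1 to WT4. Here KO1 fell below WT2 and WT3. The log2 fold change of 0.56 ± 0.21 was about as large as that of Gbp7 but did not pass (limma adjusted p = 0.0813), and it passed in 6 of the 22 alternatives, the fit without KO1 among them. Gbp6, which in mice is also recruited to Toxoplasma vacuoles, had 1.64, 2.69, 2.65 and 2.82 FPKM in KO1 to KO4, against 1.41, 1.998, 1.85 and 1.67 FPKM in WT1 to WT4. KO1 lay below 3 of the 4 WT libraries, the other KO-labelled libraries lay above all 4, and the log2 fold change of 0.39 ± 0.16 did not pass (limma adjusted p = 0.0919), though it passed in 4 of the 22 alternatives, again with that without KO1 among them. The level of Gbp6 is uncertain, since 70.7% of its 50-base stretches also occur in other annotated genes and 29.0% of its exon bases are shared with the predicted gene Gm43302, which held 0 to 2 reads.

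Gbp2, a prenylated GBP that is recruited to bacterial and parasite vacuoles, had 27.2, 36.3, 30.7 and 35.6 FPKM in KO1 to KO4, against 28.7, 29.6, 35.5 and 26.6 FPKM in WT1 to WT4. The groups overlapped almost fully. The means were 32.5 ± 4.31 FPKM in the KO-labelled group and 30.1 ± 3.81 FPKM in WT (SD, n = 4 each), giving a log2 fold change of 0.11 with a 95% interval of -0.17 to 0.39 (limma adjusted p = 0.545). An increase of the size seen for Irgm1, Irgm2 or Igtp lay outside that interval. Gbp2 was called higher only when values were scaled to a sum of 1000000 or to the reads in listed genes, at up to 0.38, where the median of all genes moved to 0.24 and 0.20. Gbp5, a prenylated GBP that promotes NLRP3 inflammasome assembly, had 2.28, 3.73, 2.96 and 2.93 FPKM in KO1 to KO4, against 2.25, 2.60, 3.48 and 2.31 FPKM in WT1 to WT4. It too overlapped (log2 fold change 0.14 ± 0.16, limma adjusted p = 0.538). Gbp9, recruited to the same vacuoles in mice, had 8.59, 10.4, 9.88 and 10.99 FPKM in KO1 to KO4, against 10.7, 12.5, 12.7 and 8.97 FPKM in WT1 to WT4. It was the only one of the 10 with a lower mean in the KO-labelled group (log2 fold change -0.15 ± 0.12, limma adjusted p = 0.373), and its sign turned under 2 of the 4 other scalings.

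FPKM values are per length, so the genes can be ranked within a group. In KO-labelled libraries the order of the means was Gbp2, Gbp3, Iigp1, Irgm2, Igtp, Gbp7, Gbp9, Irgm1, Gbp5 and Gbp6. In WT libraries it was Gbp2, Iigp1, Gbp9, Gbp3, Irgm2, Igtp, Gbp7, Irgm1, Gbp5 and Gbp6. Gbp2 stood apart at the top in both groups, with no library of any other gene reaching its lowest library in the same group. Gbp3 stood next to Gbp2 in the KO-labelled group but below Iigp1 and Gbp9 in WT, and it overlapped with its lower neighbour in both. The neighbours between Gbp3 and Gbp7 in the KO-labelled order overlapped pairwise, as did those between Iigp1 and Gbp7 in the WT order. Irgm1 stood below all of these without overlap in WT, and in KO-labelled libraries it stood below Gbp9 without overlap. Gbp5 and Gbp6 were the 2 lowest in both groups, apart from each other in WT and overlapping in KO-labelled libraries.

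The 10 genes also varied together inside each group. KO1 was the lowest KO-labelled library for all 10 genes. The share of all genes tested that were lowest in KO1 was not counted. Over all genes tested, KO1 correlated with the other KO-labelled libraries at 0.949 to 0.964, and those with each other at 0.967 to 0.975. Among WT libraries, WT1 and WT4 were the lowest for 5 genes each, and WT3 was the highest for 7 and WT2 for 3. The mean log2 value of the 10 genes was 3.13, 3.56, 3.48 and 3.60 in KO1 to KO4, against 2.68, 3.08, 3.11 and 2.70 in WT1 to WT4. KO1 thus stood just above WT2 and WT3, and the other 3 KO-labelled libraries further above. KO1 also had the highest sum of epididymis markers, 282.8 FPKM. The next highest sum, 72.3 FPKM, was in WT2, which was not low for the 10 genes. The part of those markers in the low values of KO1 was not tested.

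Because of this shared movement, each gene was also set against Gbp2 in the same library, a choice made after the data had been seen. In a fit across 14399 genes of log2 values minus that of Gbp2, 4 of the other 9 genes were called higher in the KO-labelled group and the other 5 were not called, beside 4.15% higher and 13.2% lower over all genes. They were Gbp3 (log2 fold change of the ratio 1.03 ± 0.20, limma adjusted p = 0.00436), Irgm2 (0.85 ± 0.13, adjusted p = 0.00103), Irgm1 (0.84 ± 0.15, adjusted p = 0.00278) and Igtp (0.77 ± 0.13, adjusted p = 0.00217). The change in these 4 genes differed from the change in Gbp2 by more than the spread between libraries. Gbp2 itself changed little (log2 fold change 0.11), so these calls largely repeat those of the first fit and are no separate support. Without WT1 and WT2 the Igtp difference no longer passed (adjusted p = 0.0612). The ratio of Irgm2 to Gbp2 was tight within groups, at 0.497, 0.509, 0.550 and 0.513 in KO1 to KO4, against 0.250, 0.315, 0.283 and 0.269 in WT1 to WT4.

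Gbp7 fell just short when set against Gbp2 (0.49 ± 0.16, limma adjusted p = 0.0519), and Iigp1 did not pass (0.45 ± 0.17, adjusted p = 0.0844). For Gbp5 the ratio to Gbp2 was 0.0913 ± 0.00987 in KO-labelled libraries and 0.0878 ± 0.00811 in WT libraries (SD, n = 4 each), so these 2 genes kept nearly the same proportion. The Gbp9 to Gbp2 ratio was lower in every KO-labelled library than in any WT library, 0.308 ± 0.0152 against 0.372 ± 0.0359, but the difference did not pass (-0.26 ± 0.13, limma adjusted p = 0.189).

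**Figure D2:**
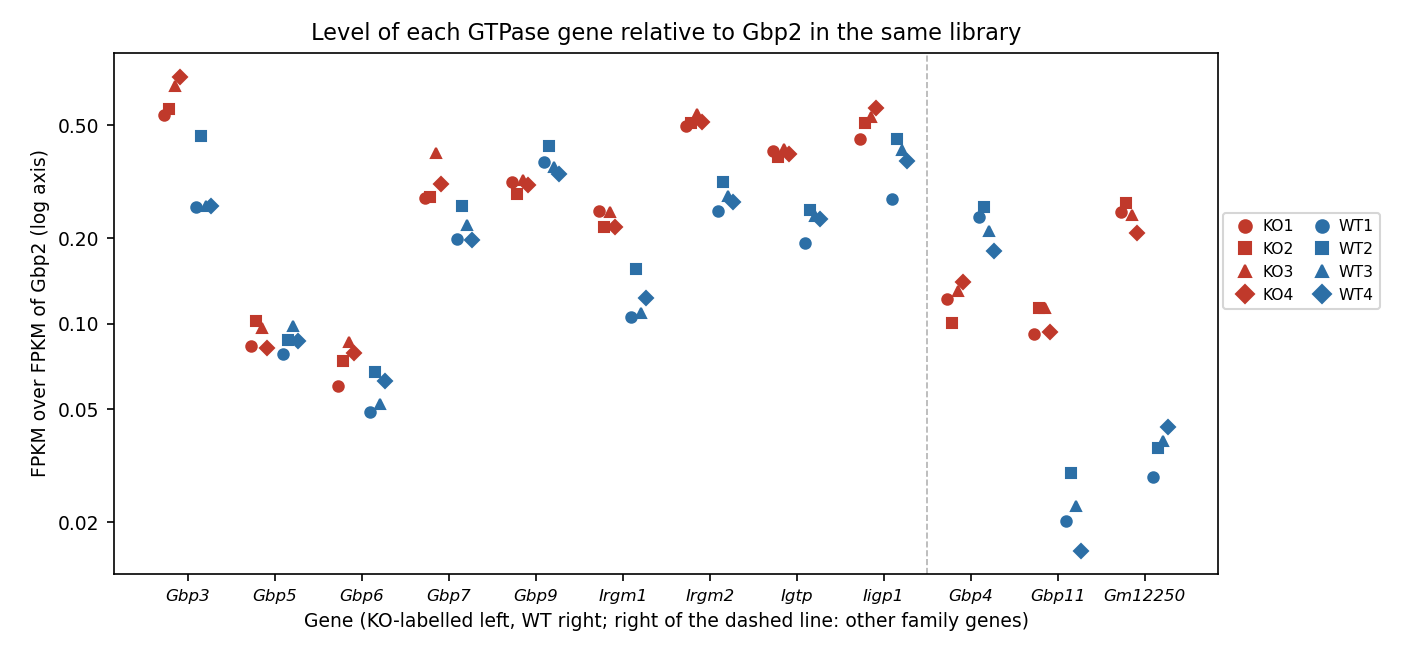
FPKM of each GTPase gene divided by FPKM of Gbp2 in the same library, on a log axis, with KO-labelled libraries (red) left of WT libraries (blue). Points are libraries. Irgm2 stands near 0.517 of Gbp2 in KO-labelled libraries and near 0.279 in WT libraries, whereas the Gbp5 points of the 2 groups intermingle; right of the dashed line, Gbp4 is lower and Gbp11 and Gm12250 are higher in the KO-labelled libraries.

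The rest of the 2 families held larger differences than the 10 genes did. Of the 11 other family genes tested, 7 were higher in the KO-labelled group and 2 lower, with a median log2 fold change of 0.88. Over all genes tested, 11.7% were called higher and 18.6% lower. F830016B08Rik, 1 of the 7, passed the filter of 0.5 FPKM only through the KO-labelled group, with a mean of 1.92 FPKM beside 0.465 FPKM in WT. Gm12250, an IRG effector that RefSeq lists with the synonym Irgb10 and that in mice helps to break open bacteria, had 6.71, 9.64, 7.42 and 7.45 FPKM in KO1 to KO4, against 0.831, 1.08, 1.37 and 1.15 FPKM in WT1 to WT4. No WT library came near the KO-labelled ones, and its log2 fold change of 2.37 ± 0.14 was the largest of either family (limma adjusted p = 2.18e-05). GENCODE labels this gene a processed pseudogene and RefSeq a protein-coding gene, and none of its 50-base stretches occur in another annotated gene.

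Gbp11, on chromosome 5, had 2.51, 4.14, 3.48 and 3.35 FPKM in KO1 to KO4, against 0.583, 0.884, 0.810 and 0.423 FPKM in WT1 to WT4 (1.72 ± 0.17, limma adjusted p = 0.000257). Gbp4, in the same cluster, was lower instead, with 3.32, 3.64, 4.01 and 4.99 FPKM in KO1 to KO4, against 6.84, 7.63, 7.54 and 4.78 FPKM in WT1 to WT4. WT4 was the WT library that fell within the KO-labelled range. Gbp4 was called lower (-0.67 ± 0.16, limma adjusted p = 0.0151), a call lost when values were scaled to a sum of 1000000, with a replicate block, and without WT1 and WT2. The ratio of Gbp4 to Gbp11 was 1.32, 0.880, 1.15 and 1.49 in KO1 to KO4, against 11.7, 8.63, 9.30 and 11.3 in WT1 to WT4. Of the 50-base stretches of Gbp11, 19.2% occur in other annotated genes, as do 7.8% of those of Gbp4.

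Among the other IRG genes, Gm4951 (RefSeq synonym Ifgga2; 1.77 ± 0.16, limma adjusted p = 0.000147), Gm5431 (Irgb9b8; 1.58 ± 0.24, adjusted p = 0.00181) and F830016B08Rik (Ifgga4; 1.32 ± 0.16, adjusted p = 0.000728) were higher in every KO-labelled library than in any WT library. The same held for Tgtp2, an effector of the Irgb6 type (0.88 ± 0.20, limma adjusted p = 0.0113), and for 9930111J21Rik2 (Irgb5; 0.66 ± 0.13, adjusted p = 0.00723, a call lost without WT1 and WT2). Their copies Tgtp1 (0.37 ± 0.24, limma adjusted p = 0.273) and 9930111J21Rik1 (0.45 ± 0.26, adjusted p = 0.222) did not pass. Values for these copies are uncertain one by one, since 81.2% of the 50-base stretches of Tgtp1, 86.6% of those of Tgtp2, 83.2% of those of 9930111J21Rik1 and 59.8% of those of 9930111J21Rik2 occur in other genes. For Gm5431 that share was 37.3%, so its value is uncertain to a lesser degree. Irgq, an IRG-like gene on chromosome 7 that interferon does not induce, was lower (-0.43 ± 0.07, limma adjusted p = 0.00326), a call lost under 2 of the other scalings.

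By place in the genome, the IRG genes of chromosome 11 had the most calls, with 7 of 9 tested genes higher, 3 of them among the 10 genes. On chromosome 18, 2 of 3 were higher, among them F830016B08Rik, which passed the filter only through the KO-labelled group, and Iigp1 did not pass. On chromosome 3, 2 of the 4 tested GBP genes were higher, Gbp3 and Gbp7, which lie between Gbp5 and Gbp2. On chromosome 5, 1 of 4 was higher and 1 lower. Family genes under 0.5 FPKM on average were not tested. Of these, Gbp8 had 59 to 69 recovered reads in KO-labelled libraries and 7 to 34 in WT libraries, and Gm4841 had 24 to 30 reads in KO-labelled libraries and 3 to 13 in WT libraries. Gbp2b, Gbp10, Irgc1 and Gm12185 overlapped between the groups.

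**Figure D3:**
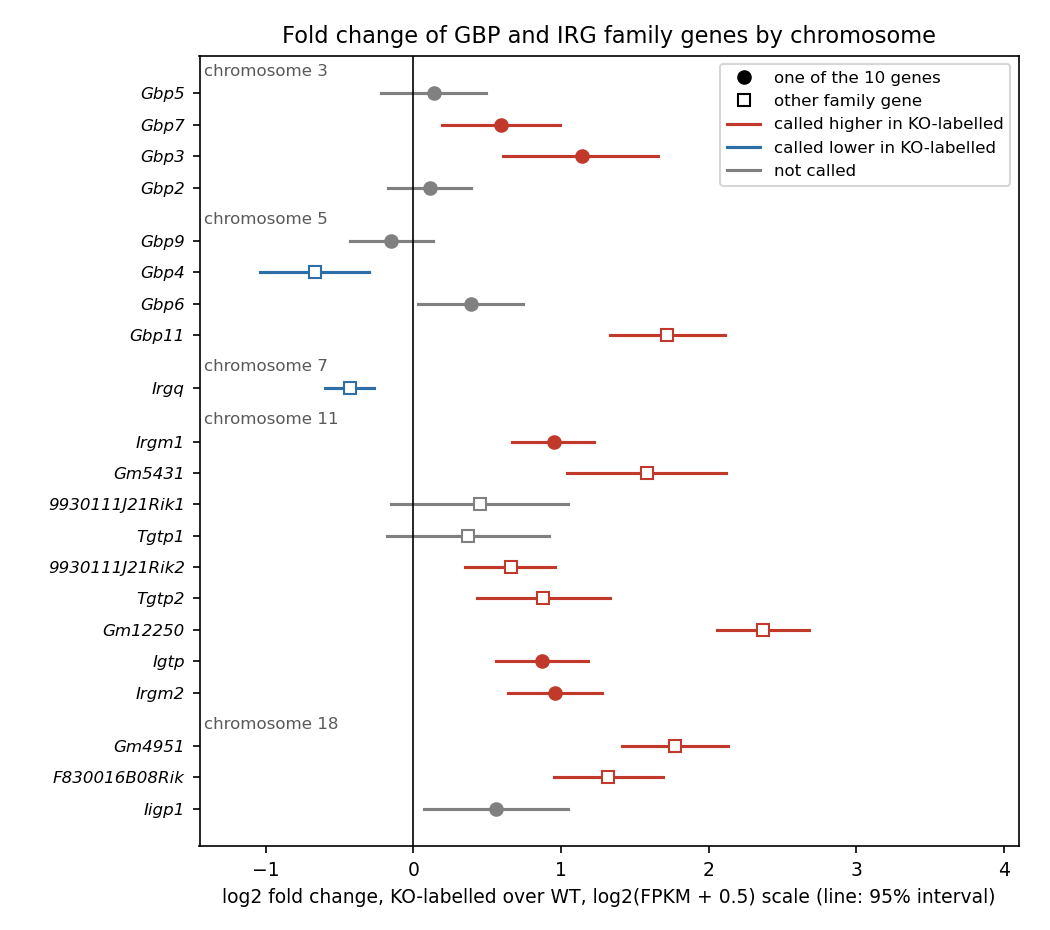
Log2 fold change (KO-labelled over WT, log2(FPKM + 0.5) scale) of the tested GBP and IRG genes, ordered along each chromosome, with 95% intervals from limma. Filled circles are the 10 genes and open squares the other family genes; red is called higher, blue called lower and grey not called. On chromosome 11 the intervals of 7 of 9 genes lie to the right of 0 in red, whereas chromosome 5 holds both a higher gene (Gbp11) and a lower one (Gbp4).

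The pathway that leads to these genes differed in parts. Ifng, the ligand gene, was barely detected, with 3, 5, 3 and 0 recovered reads in KO1 to KO4, against 1, 0, 0 and 3 reads in WT1 to WT4, and no difference was detectable at this depth. Of 8 tested receptor, kinase and transcription factor genes, 5 were higher in the KO-labelled group and none lower (none either at an unadjusted p under 0.05 by limma, and 0 lower by voom), with a median log2 fold change of 0.37; without WT1 and WT2 the count was 3. Ifngr1, the ligand-binding receptor chain, had 68.9, 68.5, 72.9 and 68.8 FPKM in KO1 to KO4, against 48.8, 53.9, 54.9 and 51.6 FPKM in WT1 to WT4 (0.41 ± 0.07, limma adjusted p = 0.00425). The groups were far apart relative to their spread, whereas the second chain, Ifngr2, overlapped (-0.17 ± 0.11, adjusted p = 0.269, with a positive sign under 2 of the other scalings).

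Irf1, a transcription factor gene that interferon-gamma induces early, had 10.1, 10.5, 10.7 and 8.31 FPKM in KO1 to KO4, against 10.8, 10.5, 9.95 and 8.78 FPKM in WT1 to WT4. The groups overlapped (-0.01 ± 0.10, limma adjusted p = 0.924), and Jak1 stood at 0.01 ± 0.07 (adjusted p = 0.936), called higher only when scaled to a sum of 1000000 or to the reads in listed genes. The sign of Irf1 was positive under all 4 other scalings. Jak2 was called higher (0.32 ± 0.10, limma adjusted p = 0.0425) and lost the call in 9 of the 22 alternatives, among them those without KO2, KO3, KO4, WT1, WT2 or WT4.

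STAT2 and IRF9, of the type I interferon complex, both had higher transcript levels. Stat2 had 11.3, 13.9, 12.5 and 12.5 FPKM in KO1 to KO4, against 6.68, 9.06, 6.84 and 6.23 FPKM in WT1 to WT4 (0.77 ± 0.12, limma adjusted p = 0.00193). Irf9 had 8.86, 9.25, 8.39 and 8.37 FPKM in KO1 to KO4, against 4.76, 7.39, 4.61 and 4.51 FPKM in WT1 to WT4 (0.69 ± 0.14, limma adjusted p = 0.00804). Neither overlapped between the groups, although WT2 came near the KO-labelled libraries for Irf9. Irf8, a factor of macrophages and dendritic cells, was also higher (0.76 ± 0.17, adjusted p = 0.0119), a call lost without WT1 and WT2.

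Of 9 tested genes that restrain interferon or other cytokine signalling, 3 were higher and 1 lower. Usp18, which removes ISG15 and blocks the type I receptor, had 7.60 ± 1.17 FPKM in KO-labelled libraries and 1.46 ± 0.651 FPKM in WT libraries (SD, n = 4 each; 2.10 ± 0.22, limma adjusted p = 0.00035). Pias1, which restrains interferon-induced transcription (0.54 ± 0.10, adjusted p = 0.00367), and the phosphatase gene Ptpn2 (0.46 ± 0.11, adjusted p = 0.0169, lost without WT1 and WT2) were higher as well. Ptpn11, which encodes the phosphatase SHP2, was lower (-0.44 ± 0.11, limma adjusted p = 0.0163), a call lost in 6 of the 22 alternatives, the fits without KO3 and without WT1 and WT2 among them.

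Other genes that interferon-gamma induces were split. Of 28 tested, 9 were higher, 1 was lower and 18 did not pass, with a median log2 fold change of 0.46. The count of higher genes moved with the setting, to 17 when values were scaled to a sum of 1000000 or to the reads in listed genes, to 15 with array weights, and to 13 without WT4. Tap1, a subunit of the peptide transporter of class I antigen presentation, had 12.4, 13.97, 11.4 and 12.1 FPKM in KO1 to KO4, against 6.74, 7.34, 6.77 and 6.18 FPKM in WT1 to WT4 (0.84 ± 0.08, limma adjusted p = 0.00027). Nlrc5, the transactivator of class I genes, was higher by a like amount (0.82 ± 0.10, adjusted p = 0.000795), as were the serine protease inhibitor genes Serpina3g (2.16 ± 0.21, adjusted p = 0.000219) and Serpina3f (1.39 ± 0.15, adjusted p = 0.000442). These 4 kept their calls under all alternatives tried. Serpina3f passed the filter only through the KO-labelled group, with a mean of 1.18 FPKM beside 0.136 FPKM in WT.

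**Figure D4:**
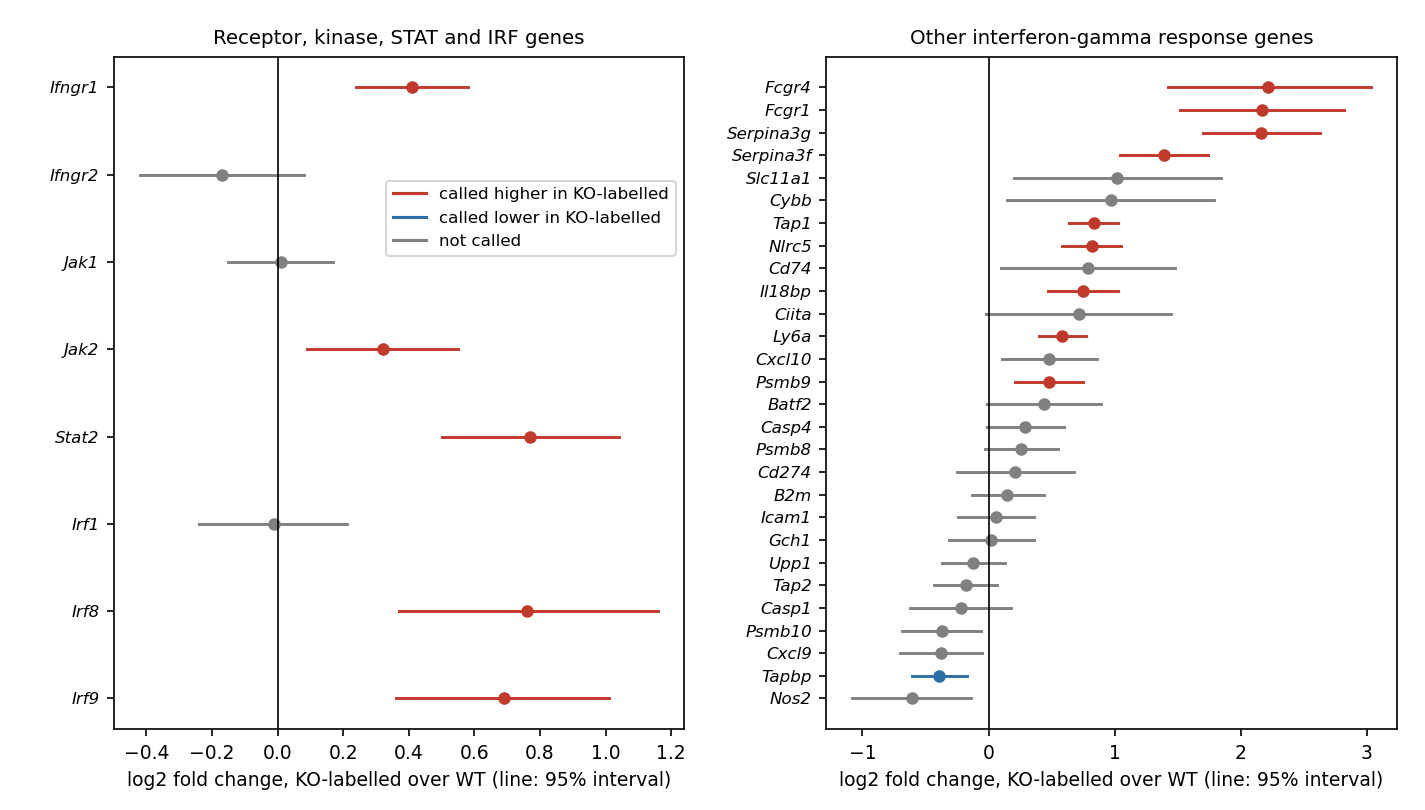
Log2 fold change (KO-labelled over WT, log2(FPKM + 0.5) scale) with 95% intervals from limma for the tested receptor, kinase, STAT and IRF genes (left) and for other interferon-gamma response genes (right, ordered by fold change). Red is called higher, blue called lower and grey not called. On the left, Irf1 and Jak1 stand at 0 while Stat2, Irf8 and Irf9 stand between 0.69 and 0.77; on the right, 9 genes are red and 1 is blue.

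Of the larger interferon-inducible GTPases, Mx1 and Mx2 are known mainly as targets of type I and type III interferon. All 3 larger GTPase genes tested, these and Gvin1, were higher. Mx1 had 5.43, 7.76, 4.80 and 4.85 FPKM in KO1 to KO4, against 0.964, 1.59, 0.611 and 1.13 FPKM in WT1 to WT4 (1.99 ± 0.21, limma adjusted p = 0.000362). Mx2 (1.54 ± 0.19, adjusted p = 0.000665) and Gvin1, a very large GTPase (0.64 ± 0.13, adjusted p = 0.00763), did not overlap between the groups either. Gvin1 passed the filter only through the KO-labelled group, with a mean of 0.970 FPKM beside 0.444 FPKM in WT.

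GBPs and IRGs reach their membranes with help from other proteins. Of 19 tested genes for ATG8 conjugation, ubiquitin and ISG15 factors that act with them, 4 were higher and 7 lower, with a median log2 fold change of -0.17. Atg12, part of the conjugation machinery that places IRGs and GBPs on vacuoles, had 11.7 ± 0.518 FPKM in KO-labelled libraries and 21.8 ± 2.16 FPKM in WT libraries (SD, n = 4 each; -0.87 ± 0.08, limma adjusted p = 0.000231). Rnf213, a giant ubiquitin ligase that coats intracellular pathogens, was higher (1.07 ± 0.12, adjusted p = 0.000468). The conjugating enzyme gene Atg10 (-0.44 ± 0.06, adjusted p = 0.00128) and the ATG8 family gene Gabarapl2 (-0.43 ± 0.07, adjusted p = 0.0021) were lower, calls lost when values were scaled to a sum of 1000000. Under that scaling 7 of the 19 were higher and 1 was lower, and under scaling to the reads in listed genes 6 were higher and 2 lower. Without WT1 the counts were 2 higher and 6 lower, and without WT1 and WT2 they were 3 and 3.

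Of 5 tested genes for prenylation, the lipid modification that anchors Gbp2 and Gbp5 in membranes, 2 were lower and none higher by limma (none at an unadjusted p under 0.05 and none by voom). They were the CAAX protease gene Rce1 (-0.83 ± 0.11, limma adjusted p = 0.00103) and Fnta, a subunit shared by farnesyl and geranylgeranyl transferases (-0.54 ± 0.10, adjusted p = 0.00427, a call lost when scaled to a sum of 1000000 and without WT1 and WT2). Of 8 tested genes of the inflammasomes that GBPs promote, none was called by limma or by voom. At an unadjusted p under 0.05, 4 of the 8 were higher and none lower. Without WT4, 4 of them were called higher, and without KO4, 2. With array weights 4 were called higher, with scaling to a sum of 1000000 5, and with scaling to the reads in listed genes 6.

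Markers of cell types that could carry these transcripts moved as well. Macrophage markers summed to 542.1 to 1183 FPKM in KO-labelled libraries and 409.5 to 1239 FPKM in WT libraries, and 6 of 18 were higher, led by Fcgr1 (2.17 ± 0.28, limma adjusted p = 0.000961) and Aif1 (1.54 ± 0.21, adjusted p = 0.00114). That count was 13 without WT4, 8 without KO4, 4 without WT1 and 3 without WT1 and WT2. Fcgr1 also stands among the other interferon-gamma response genes above, so it is counted as higher in both lists. The 12 macrophage markers not called included Cd68, Lyz2, Itgam, Adgre1 and Csf1r. By library the macrophage sums and the GTPase means were ordered differently. KO4 had the lowest macrophage sum of the KO-labelled libraries and the highest GTPase mean. WT4 had the highest macrophage sum of all 8 libraries while its GTPase mean was among the 2 lowest. Those sums followed Lyz2, their most abundant gene, with 728.6 FPKM in KO1 and 785.3 FPKM in WT4. By mean log2 level of the 18 markers, WT4 (4.11) lay below KO1, KO2 and KO3 (4.28, 4.38 and 4.16), and KO4 (3.58) was again the lowest of its group.

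Markers of natural killer cells and type 1 innate lymphoid cells, which make interferon-gamma, were low in both groups. They summed to 10.14 to 13.3 FPKM in KO-labelled libraries and 2.69 to 5.53 FPKM in WT libraries, with no overlap. Of 11 markers found, 4 could be tested and 3 were higher, namely Il2rb (1.68 ± 0.20, limma adjusted p = 0.0006), Nkg7 (1.65 ± 0.27, adjusted p = 0.00268) and Gzmb (0.92 ± 0.27, adjusted p = 0.0320). The Gzmb call was lost in 8 of the 20 alternatives it could be fitted in, those without KO4, WT1, WT2 or WT3 among them. Gzmb passed the filter only through the KO-labelled group, with a mean of 0.918 FPKM beside 0.208 FPKM in WT. Gzma, the other marker tested, was not called (-0.14 ± 0.18, limma adjusted p = 0.568). The defining receptor gene Ncr1 averaged 0.584 ± 0.170 FPKM in KO-labelled libraries and 0.333 ± 0.132 FPKM in WT libraries, with overlap.

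T cells are the other main source of interferon-gamma. Of 12 T cell markers, 9 were higher in every KO-labelled library than in any WT library, while 1 was lower in every one. Over all genes tested, 12.1% were higher without overlap and 19.1% lower. Of these 9 markers, 8 were too low to be tested, so those shares do not cover genes this low. Cd4, the coreceptor of helper T cells, had 122, 92, 88 and 71 recovered reads in KO1 to KO4, against 7, 5, 10 and 14 reads in WT1 to WT4. Cd3e, a chain of the T cell receptor complex, had 73, 45, 46 and 33 reads in KO1 to KO4, against 16, 7, 17 and 1 reads in WT1 to WT4. Of the 3 markers tested, the kinase gene Lck was higher (0.84 ± 0.20, limma adjusted p = 0.0137, a call lost without WT1 and WT2). Lck passed the filter only through the KO-labelled group, with a mean of 1.08 FPKM beside 0.361 FPKM in WT. Thy1 was lower (-0.70 ± 0.20, limma adjusted p = 0.0294, a call lost in 9 of the 22 alternatives, those without KO2, KO3, KO4, WT3 or WT4 among them). Trac averaged 2.70 ± 0.606 FPKM in KO-labelled libraries and 6.215 ± 3.507 FPKM in WT libraries (SD, n = 4 each), with overlap, and did not pass (limma adjusted p = 0.0826). The summed level of the list followed Thy1 and Trac, its 2 most abundant genes, with 9.64 to 15.8 FPKM in KO-labelled libraries and 10.14 to 19.6 FPKM in WT libraries.

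Dendritic cell markers summed to 11.5 to 14.7 FPKM in KO-labelled libraries and 10.3 to 14.5 FPKM in WT libraries, and 3 of 7 tested were higher and none lower by limma (1 lower at an unadjusted p under 0.05, and 0 by voom). They were the homing receptor gene Ccr7 (0.96 ± 0.13, limma adjusted p = 0.00108), Xcr1 (0.67 ± 0.18, adjusted p = 0.0244) and Clec9a (0.40 ± 0.13, adjusted p = 0.0452), the last 2 markers of cross-presenting dendritic cells. Xcr1 passed the filter only through the KO-labelled group, with a mean of 0.738 FPKM beside 0.283 FPKM in WT. Ccr7 kept its call under all 22 alternatives. The count of higher markers was 1 when KO2, KO3, KO4, WT2 or WT3 was left out and without WT1 and WT2. Cd209a went the other way but did not pass (-0.73 ± 0.25, limma adjusted p = 0.0549). A lower call for 1 dendritic cell marker appeared with the replicate block, with protein-coding genes only, without WT1, and without both WT1 and WT2. Of the 2 B cell markers tested, Cd79b was higher (0.81 ± 0.22, limma adjusted p = 0.0241, a call lost in 7 of the 22 alternatives, those without KO2, KO3, WT1, WT2 or WT3 among them). Ighm, the immunoglobulin M heavy chain gene, was lower (-1.04 ± 0.31, adjusted p = 0.0365), a call lost when any library other than WT4 was left out. Of the 2 neutrophil markers tested, S100a8 was higher (0.81 ± 0.22, adjusted p = 0.0236, a call lost without WT1, without WT3 and without both WT1 and WT2). Pax5 and Cr2 of B cells and Retnlg and Mpo of neutrophils were under 0.1 FPKM in all 8 libraries.

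Adipocyte markers summed to 2865 to 3936 FPKM in KO-labelled libraries and 4937 to 7999 FPKM in WT libraries, and 11 of 12 were lower, led by the leptin gene Lep (-3.34 ± 0.16, limma adjusted p = 1.09e-05) and the lipid droplet gene Cidec (-1.82 ± 0.15, adjusted p = 0.000109). The count was 7 of 12 with scaling to a sum of 1000000 or with KO2, KO3, WT1 or WT2 left out, and 4 without WT1 and WT2. In the fits without WT2 and without both WT1 and WT2, 1 adipocyte marker was called higher. Endothelial markers summed to 193.2 to 230.3 FPKM in KO-labelled libraries and 286.4 to 398.6 FPKM in WT libraries, and 10 of 12 were lower, led by Robo4 (-0.85 ± 0.11, limma adjusted p = 0.000795) and Egfl7 (-1.26 ± 0.19, adjusted p = 0.00177). The count was 6 of 12 when scaled to a sum of 1000000, and 6 without WT1 and WT2. Adipocyte markers were high in all 8 libraries, as the labelled tissue requires. The part of any of these cell types in the levels of the GTPase genes was not tested.

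**Figure D5:**
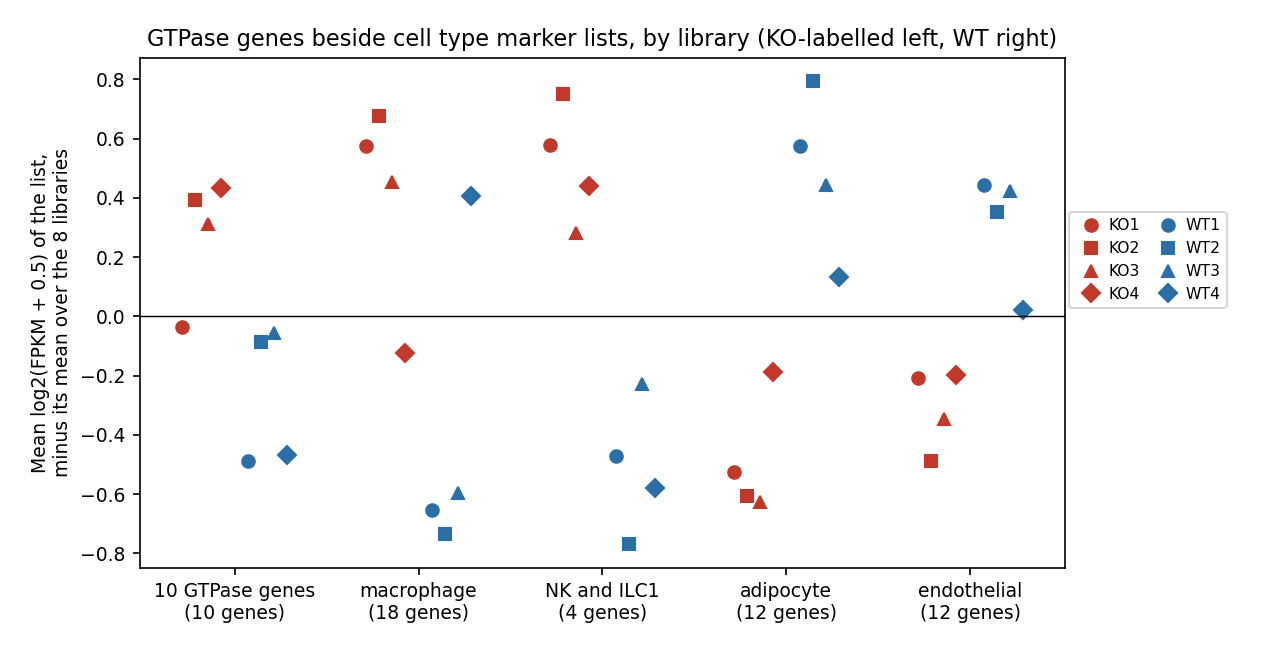
Mean log2(FPKM + 0.5) of the 10 GTPase genes and of the tested markers of 4 cell types, each minus its own mean over the 8 libraries, with KO-labelled libraries (red) left of WT libraries (blue). Points are libraries. KO4 is the highest red point for the GTPase genes and the lowest for macrophage markers, and WT4 is a high blue point for macrophage markers but a low one for the GTPase genes.

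Genes whose pattern was most like the mean of the 10 were sought over the 8 libraries after subtraction of each group's mean, so that the difference between the groups played no part. All points share the libraries and their depth, and r is given as a description. Of the 10 themselves, Irgm2 followed the mean most closely (r = 0.995) and Gbp5 least (r = 0.843, rank 204 of the 14400 genes tested). Each of the 10 is part of that mean, which raises its r. Outside the 10, the closest named genes were Arhgef18 (r = 0.976), Wasf1 (r = 0.976), Crebl2 (r = 0.974), Met (r = 0.972) and Rraga (r = 0.966). Between the groups these 5 did not move as Irgm2 did, with log2 fold changes of 0.20 for Arhgef18, -0.35 for Wasf1, 0.24 for Crebl2, 0.13 for Met and -0.31 for Rraga, of which that of Rraga was called (limma adjusted p = 0.0204, a call lost in 6 of the 22 alternatives, those without WT2, without WT3 and without both WT1 and WT2 among them).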

How the data were processed

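The deposited file holds FPKM values, made by the authors, with 1 column per library. HISAT2 2.0.5, featureCounts and mm10 are named per the submitters' processing notes. The annotation release and the strand setting are not given in the sources used here, so overlapping genes may share reads. Symbols were taken by gene ID (99.9% matched GENCODE M21).

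Values were fitted as log2(FPKM + 0.5), KO-labelled over WT, with limma 3.58.1 (R 4.3.3; limma-trend, robust, two-sided, no covariate) on the 14400 genes with a mean of at least 0.5 FPKM, and p-values were adjusted by Benjamini-Hochberg over all of them. The scale understates changes of low genes. The filter uses the mean of both groups together, so a gene low in WT can pass through the KO-labelled group alone. Among the named genes called higher, Gzmb, Xcr1, Lck, Serpina3f, Gvin1 and F830016B08Rik had WT means under 0.5 FPKM. Errors are SDs of FPKM or limma standard errors of log2 fold changes. The FPKM denominators and read counts were recovered from the steps of low values and exon lengths. Of values between 0.5 and 200 reads, 97.9% lay within 0.02 of a whole number, and voom on these reads called 4532 genes. The 10 genes held 214 to 2940 reads each per library. On simulated data with 14400 genes the fit recovered 74% of 100 genes whose log2 level was changed by 1 and 25% of 100 whose level was changed by 0.5, and 4.81% of its calls were false. No other genes were changed there and the noise was independent between genes, whereas 30.4% of genes were called in the data. These shares therefore need not hold for the data.

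The 10 genes and the gene lists were chosen with earlier results of these data known. One pathway gene is not reported here. Named were the 10 genes, every gene of the receptor and transcription factor list and of the other family genes found, up to 4 genes with the smallest adjusted p from every other list, defining markers at or near 0, Cul3, and the 5 genes most like the 10. Outside this rule, Ncr1, Cd4, Cd3e, Cd68, Lyz2, Itgam, Adgre1 and Csf1r were named after their values were seen. Promoter sequences are from RefSeq (GRCm38.p6). Alternatives were 2 pseudocounts (0.1 and 1), 2 filters, 4 scalings, array weights, voom, a replicate block, limma without trend, protein-coding genes only, each library left out and WT1 and WT2 left out together. The values relative to Gbp2 were added after the data were seen. Tables and plots used Python 3.11.15, numpy 2.4.6, pandas 2.3.3 and matplotlib 3.10.9.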

Additional observations from a re-analysis of the deposited data

Results flagged for a closer look

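In 58 groups of 4 libraries (the tested GTPase family genes and pathway genes in each group), a single library stood apart from the other 3 in 4 cases. Chance gives about 1 such case in 20 groups, so 4 cases in 58 are near what chance gives. The groups also share libraries and are not independent. Gbp6 had 1.643 FPKM in KO1, the lowest of the KO-labelled libraries, and 2.649 FPKM in the next. Ifngr1 had 72.91 FPKM in KO3, the highest of the KO-labelled libraries, and 68.88 FPKM in the next. Gm5431 had 1.369 FPKM in WT4, the highest of the WT libraries, and 0.6704 FPKM in the next. Irf9 had 7.386 FPKM in WT2, the highest of the WT libraries, and 4.763 FPKM in the next.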

How the results depend on the processing

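Of the 10 GTPase genes, 5 were called, 4 to 7 when 1 library was left out, and 8 when values were scaled to a sum of 1000000 or to the reads in listed genes. Those scalings moved the table's median log2 fold change to 0.24 and 0.20, and the calls over the table from 1689 higher and 2683 lower to 4226 and 1190, and to 4197 and 1267. Relative to that shift Gbp2 stood at 0.38 beside 0.24. The whole table gave 4372 calls, 2962 to 4732 when 1 library was left out, and 1758 without WT1 and WT2. Cul3 reached 0.37 (limma adjusted p = 0.0477) and 0.34 (adjusted p = 0.0397) under the same 2 scalings, and 0.03 to 0.15 when 1 library was left out. Under these scalings Gbp9 stood at 0.11 and 0.09, Ifngr2 at 0.09 and 0.07 and Irf1 at 0.26 and 0.23. Under median-of-ratios scaling Irf1 stood at 0.02, and under quantile normalization at 0.08. Without WT1 and WT2, Jak1 stood at -0.04 and Irf1 at 0.07, and Gbp5 relative to Gbp2 at -0.03, which was -0.18 with quantile normalization. With 1 library left out, Jak1 ran from -0.02 to 0.04, Irf1 from -0.07 to 0.06 and Gbp5 relative to Gbp2 from -0.01 to 0.08. None of these sign changes passed the test. Same-numbered libraries did not deviate together (correlations of -0.06, -0.131, 0.169 and -0.317), and other pairs ran from -0.231 to 0.208. No pairing by number was seen, but so few libraries cannot exclude one. With the replicate block, 6 of the 10 genes and 3108 genes of the table were called. The causes of these shifts were not tested.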
